A study of Homo sapiens with 9 samples.

Results

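The 8 genes described here belong to the eicosanoid pathways, which turn arachidonic acid into lipid messengers. They are ALOX12 (arachidonate 12-lipoxygenase), ALOX5 (arachidonate 5-lipoxygenase), ALOX5AP (the 5-lipoxygenase activating protein), LTA4H (leukotriene A4 hydrolase), LTC4S (leukotriene C4 synthase), GGT5 (a gamma-glutamyltransferase that cleaves leukotriene C4), PTGS1 (cyclooxygenase 1) and TBXAS1 (thromboxane A synthase). ALOX12 and GGT5 were picked by their measured values, because the first was lower and the second higher with both hairpins against DDX41. The other 6 were listed for their function. All 8 were found among the 30017 genes of the count table, and all 8 were among the 12712 that passed the filter on low counts and were tested.

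RNA was sequenced from MOLM13 cells, an established human acute myeloid leukemia line with monocytic features. The cells were transduced with a pLKO-GFP lentivirus that carried a control hairpin (sh-Control) or 1 of 2 short hairpin RNAs against DDX41 (shDDX41 #1 and shDDX41 #2), a DEAD-box RNA helicase gene mutated in inherited and acquired myeloid neoplasms. Cells of every group were sorted on day 4 after transduction, so all groups shared the vector and the sort. Each group had 3 libraries, lettered A, B and D. All came from a single cell line, and the labels do not say whether the libraries came from separate cultures, so the p-values measure the spread between these libraries, which may be technical. The study's methods call its quantified assays biological replicates in general, without naming these libraries.

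Arachidonic acid is released from membrane phospholipids by phospholipases and is then oxidised along separate branches. Lipoxygenases make hydroperoxides and, through 5-lipoxygenase and its helper protein, the leukotrienes that recruit and activate white cells. Cyclooxygenases make the prostaglandins and thromboxane. Monocytes and their precursors are known producers of leukotriene B4, whereas 12-lipoxygenase is best known from platelets.

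The libraries held 16385238 to 20510032 counts, and levels are given as counts per 1000000 (CPM) scaled between libraries by TMM factors. DDX41, the targeted gene, had 117, 115 and 113 CPM (A, B, D) in the control libraries. The values were 12.2, 12.9 and 9.95 CPM with shDDX41 #1 and 38.9, 39.9 and 42.5 CPM with shDDX41 #2. The 3 groups did not overlap, and the level was 10.2% of sh-Control with hairpin #1 and 35.2% with hairpin #2. Of 12 monocytic leukemia markers, 11 passed the filter, whereas CD14, a surface marker of mature monocytes, had 12 counts in all 9 libraries together. Their summed level was 2092 to 2161 CPM in sh-Control, 2197 to 2234 CPM with #1 and 3024 to 3058 CPM with #2. LYZ, the lysozyme gene, held most of the latter difference, at 931 CPM in sh-Control, 870 CPM with #1 and 1818 CPM with #2. Of the 11 markers, 5 were called higher and 3 lower with #1 (median log2 difference 0.16), and 3 higher and 0 lower with #2 (median −0.04). Over all genes tested, 23.7% were called higher and 24.1% lower with #1, and 11.6% higher and 13.4% lower with #2. Of 14 megakaryocyte and platelet markers, only NFE2, which myeloid cells also express, was tested. GP1BB, PF4, PPBP, SELP, CLEC1B and GATA1 were at 0 in every library, where a count of 0 allows up to 0.149 to 0.182 CPM (3 counts in 1 library), and the other 7 reached at most 0.364 CPM. These limits cover counting error only. In bulk RNA, fewer cells of a type and less RNA per cell cannot be told apart.

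The promoters of 3 members are printed here. They are those of ALOX12, which was lower with both hairpins, and of LTA4H, the only 1 of the other 6 called higher with both. The last is that of ALOX5AP, the most abundant of the 8 per length of exon. RefSeq promoter entries were found for 6 of the 8 genes, 7 entries in all, since PTGS1 had an extra entry. Each line gives the 250 bases before the start in the RefSeq entry, 5′ to 3′ on the gene's own strand, in build GRCh38.p14. These starts need not be the outer ends of the GENCODE genes: the stretch of LTA4H lies inside the gene's GENCODE span. So do that of TBXAS1 and the extra stretch of PTGS1. The ALOX12 stretch is chr17:6995799-6996048 on the plus strand, LTA4H is chr12:96035588-96035837 on the minus strand and ALOX5AP is chr13:30713235-30713484 on the plus strand. Capitals mark matches on either strand to the GC box GGGCGG or to GAGGAAGT, a core of the type bound by the myeloid factor PU.1.
ALOX12: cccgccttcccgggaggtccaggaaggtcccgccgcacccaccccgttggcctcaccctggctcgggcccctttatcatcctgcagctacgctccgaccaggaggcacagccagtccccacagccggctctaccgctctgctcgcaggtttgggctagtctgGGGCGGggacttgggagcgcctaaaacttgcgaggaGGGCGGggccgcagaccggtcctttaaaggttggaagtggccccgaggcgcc
LTA4H: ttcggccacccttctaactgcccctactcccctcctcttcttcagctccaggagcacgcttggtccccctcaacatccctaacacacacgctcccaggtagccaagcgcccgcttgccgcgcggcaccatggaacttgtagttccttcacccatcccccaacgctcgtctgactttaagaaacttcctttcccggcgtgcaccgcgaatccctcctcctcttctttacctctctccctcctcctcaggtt
ALOX5AP: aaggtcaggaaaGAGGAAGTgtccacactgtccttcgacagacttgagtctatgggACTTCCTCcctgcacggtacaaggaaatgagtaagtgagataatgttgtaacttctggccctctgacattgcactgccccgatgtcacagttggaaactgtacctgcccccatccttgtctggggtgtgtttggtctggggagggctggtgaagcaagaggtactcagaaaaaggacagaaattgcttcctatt
The ALOX12 stretch held 2 GC boxes, and 42.6% of the 35116 RefSeq promoter stretches of this length held at least 1. The ALOX5AP stretch held 2 matches to GAGGAAGT, 1 on each strand, and so did that of TBXAS1, while 2.17% of all stretches held at least 1. The LTA4H stretch held neither motif, and no stretch of the 6 genes held both. These matches describe the letters of the stretches only.

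ALOX12 encodes the lipoxygenase that makes 12-hydroperoxyeicosatetraenoic acid. The gene lies on chromosome 17 at 6996065 to 7010736 on the plus strand (GRCh38, GENCODE 29). In sh-Control its level was 54.4, 53.4 and 52.3 CPM in libraries A, B and D. The gene stood at 22.9, 21.7 and 15.8 CPM with shDDX41 #1 and 8.21, 8.78 and 9.09 CPM with shDDX41 #2. All 3 sh-Control libraries were above all libraries with hairpin #1, and these were all above those with hairpin #2. The group means were 53.4 ± 1.03, 20.1 ± 3.78 and 8.69 ± 0.445 CPM (SD, n = 3 each). ALOX12 was thus at 37.7% of sh-Control with #1 (log2 difference −1.41, SE 0.11) and at 16.3% with #2 (−2.62, SE 0.12). Between the hairpins it was 2.32-fold higher with #1 (log2 difference 1.21, SE 0.12). The order of the groups was not that of DDX41, which was lower with #1 than with #2. No p-value is given for ALOX12 or GGT5 in any comparison, since their change with both hairpins is what chose them.

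Reads over ALOX12 can overlap its antisense transcript ALOX12-AS1, which spans the whole gene on the minus strand and was matched in the table by its gene ID. ALOX12-AS1 had 18 to 30 counts in the sh-Control libraries, 23 to 38 with #1 and 24 to 45 with #2. Its level overlapped between the groups at 1.24 ± 0.418, 1.91 ± 0.472 and 1.84 ± 0.777 CPM. It did not pass the test with #1 (log2 difference 0.63, SE 0.34, adjusted p = 0.14) or with #2 (0.55, SE 0.34, adjusted p = 0.252). The pseudogene ALOX12P2 had at most 3 counts in any library. The other lipoxygenase genes gave almost no reads. ALOX15B, a 15-lipoxygenase gene, was at 0 in every library, and ALOX15, ALOX12B and ALOXE3 had at most 3, 2 and 1 counts in any library. ALOX12 and ALOX5 were therefore the only lipoxygenase genes that could be compared.

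**Figure D1:**
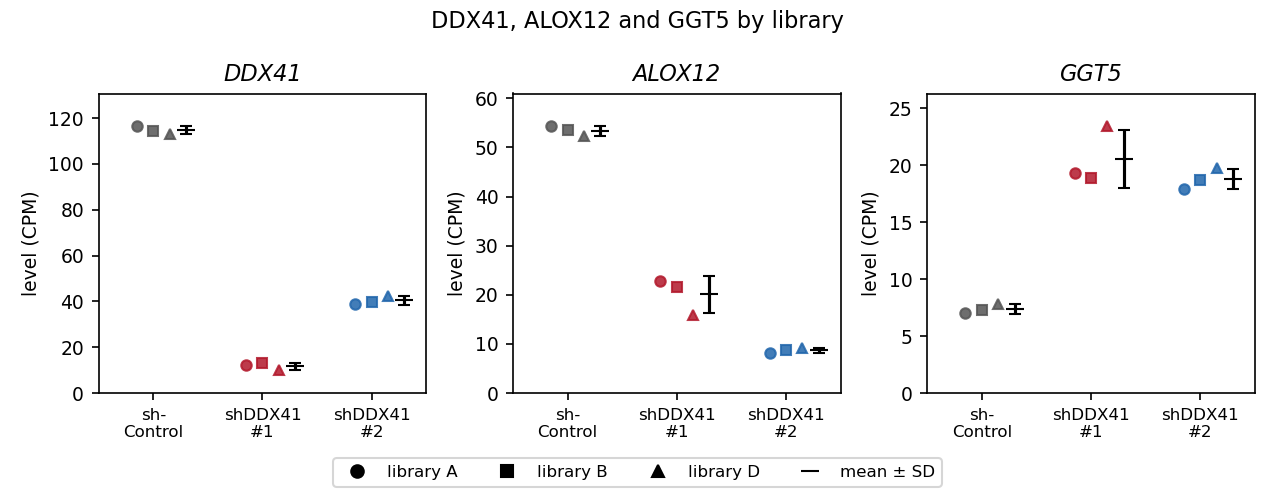
Level of DDX41, ALOX12 and GGT5 in CPM (y axis from 0) in each of the 9 libraries by group (x axis). Marker shapes stand for libraries A, B and D and bars for the mean ± SD of 3 libraries. ALOX12 is at 52.3 to 54.4 CPM in sh-Control and at 8.21 to 9.09 CPM with shDDX41 #2, whereas the lowest DDX41 levels are those with shDDX41 #1.

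GGT5 encodes a membrane enzyme that removes the glutamyl residue of leukotriene C4 to give leukotriene D4, and it also acts on glutathione. It lies on chromosome 22 at 24219654 to 24245142 on the minus strand. In sh-Control its level was 7.05, 7.28 and 7.85 CPM in libraries A, B and D. The gene stood at 19.3, 18.9 and 23.5 CPM with shDDX41 #1 and 17.9, 18.7 and 19.8 CPM with shDDX41 #2. Every library with a hairpin against DDX41 was above every sh-Control library, and the hairpins overlapped each other. The means were 7.39 ± 0.410, 20.6 ± 2.53 and 18.8 ± 0.914 CPM, which is 2.78-fold sh-Control with #1 (log2 difference 1.47, SE 0.11) and 2.54-fold with #2 (1.34, SE 0.11). The hairpins differed by 0.13 on the log2 scale (95% interval −0.09 to 0.35). Of 5 other genes of the gamma-glutamyltransferase family, only GGT1 and GGT7 passed the filter. GGT1, the family member best known for cleaving glutathione, can share reads with near-identical copies of the family. It was at 12.8 CPM in sh-Control, 14.5 CPM with #1 and 15.2 CPM with #2 and did not pass the test with #1 (log2 difference 0.18, adjusted p = 0.32) or #2 (0.24, adjusted p = 0.235).

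The 5-lipoxygenase branch starts with ALOX5, which makes leukotriene A4 and lies on chromosome 10 at 45374176 to 45446119 on the plus strand. ALOX5 was barely expressed, with 14 to 42 counts a library. Its level was 0.777, 1.78 and 0.843 CPM in sh-Control, 1.45, 1.44 and 1.70 CPM with #1 and 2.27, 1.49 and 1.70 CPM with #2. Sh-Control library B was above all libraries with #1, and the groups overlapped. ALOX5 did not pass the test with #1 (log2 difference 0.44, SE 0.33, adjusted p = 0.285) or with #2 (0.69, SE 0.31, adjusted p = 0.125). That call rested on 1 library. Without sh-Control library B the difference was 0.91 with #1 (adjusted p = 0.0373) and 1.16 with #2 (adjusted p = 0.0215).

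ALOX5AP encodes the membrane protein that presents arachidonic acid to 5-lipoxygenase and lies on chromosome 13 at 30713478 to 30764426 on the plus strand. In contrast to ALOX5 it was abundant, at 139, 133 and 147 CPM in sh-Control, 151, 137 and 178 CPM with #1 and 153, 157 and 154 CPM with #2. The libraries with #2 were all above those of sh-Control, whereas those with #1 overlapped them. The log2 difference was 0.15 with #1 (95% interval −0.02 to 0.33, adjusted p = 0.134) and 0.15 with #2 (−0.03 to 0.32, adjusted p = 0.203), and neither passed the test. The difference with #1 was called in 2 of 18 alternative fits, at 0.24 without shDDX41 #1 library B (adjusted p = 0.0218) and at 0.23 with upper quartile factors (adjusted p = 0.0341). That with #2 was also called in 2, at 0.16 without shDDX41 #1 library D (adjusted p = 0.0391) and at 0.16 in a fit of the 6 libraries compared (adjusted p = 0.0417). Between the hairpins the log2 difference was 0.01 (95% interval −0.17 to 0.18, adjusted p = 0.963).

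LTA4H encodes the hydrolase that turns leukotriene A4 into leukotriene B4 and lies on chromosome 12 at 96000828 to 96043520 on the minus strand. Its level was 82.1, 77.2 and 91.1 CPM in sh-Control, 96.1, 96.3 and 113 CPM with #1 and 101, 104 and 105 CPM with #2. The libraries of both hairpins were all above those of sh-Control. LTA4H rose 1.22-fold with #1 (log2 difference 0.29, SE 0.08, adjusted p = 0.00793) and 1.24-fold with #2 (0.31, SE 0.08, adjusted p = 0.0106). The difference between the hairpins did not pass the test (log2 difference −0.02, 95% interval −0.19 to 0.15, adjusted p = 0.833). LTC4S, which instead joins leukotriene A4 to glutathione, lies on chromosome 5 at 179793980 to 179796647 on the plus strand. It was at 0.573 to 1.21 CPM in sh-Control, 0.958 to 2.24 CPM with #1 and 0.424 to 1.59 CPM with #2, from 7 to 37 counts a library. The groups overlapped and no comparison passed the test (adjusted p = 0.209, 0.688 and 0.448 for #1, #2 and between the hairpins). The 95% intervals of its log2 differences from sh-Control ran from −0.24 to 1.60 with #1 and from −0.67 to 1.22 with #2. A change within these limits is therefore not excluded.

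On the prostanoid branch, PTGS1 makes prostaglandin H2 and lies on chromosome 9 at 122370530 to 122395703 on the plus strand. PTGS1 was at 14.3, 11.2 and 10.6 CPM in sh-Control, 13.8, 13.2 and 12.4 CPM with #1 and 8.75, 10.4 and 11.1 CPM with #2. The sh-Control libraries overlapped both other groups, and neither difference from sh-Control passed the test (log2 difference 0.12, adjusted p = 0.462 with #1 and −0.26, adjusted p = 0.176 with #2). The hairpins did not overlap, and PTGS1 was 1.30-fold higher with #1 than with #2 (log2 difference 0.38, SE 0.13, adjusted p = 0.0282). This call was lost without #1 library A (adjusted p = 0.0898), #1 library B (adjusted p = 0.0644), #2 library A (adjusted p = 0.128) or #2 library B (adjusted p = 0.0546).

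TBXAS1 converts prostaglandin H2 to thromboxane A2 and lies on chromosome 7 at 139777051 to 140020325 on the plus strand. It was at 17.4, 15.9 and 22.3 CPM in sh-Control, 21.0, 17.4 and 18.7 CPM with #1 and 19.1, 26.2 and 23.0 CPM with #2. The groups overlapped, and TBXAS1 did not pass the test with #1 (log2 difference 0.03, adjusted p = 0.855), with #2 (0.29, adjusted p = 0.125) or between the hairpins (−0.26, adjusted p = 0.127). Without sh-Control library D, the highest of its group, the difference with #2 was 0.45 (adjusted p = 0.0301), and without the filter on low counts it was 0.30 (adjusted p = 0.0499). Without shDDX41 #2 library A that between the hairpins was −0.37 (adjusted p = 0.0458). The 5′ end of TBXAS1 shares 728 bases with HIPK2 on the opposite strand. HIPK2, a kinase gene, was at 3.18 CPM in sh-Control and rose to 5.56 CPM with #1 (adjusted p = 0.00502) and 7.33 CPM with #2 (adjusted p = 0.000563), and its part in the reads of TBXAS1 was not tested.

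**Figure D2:**
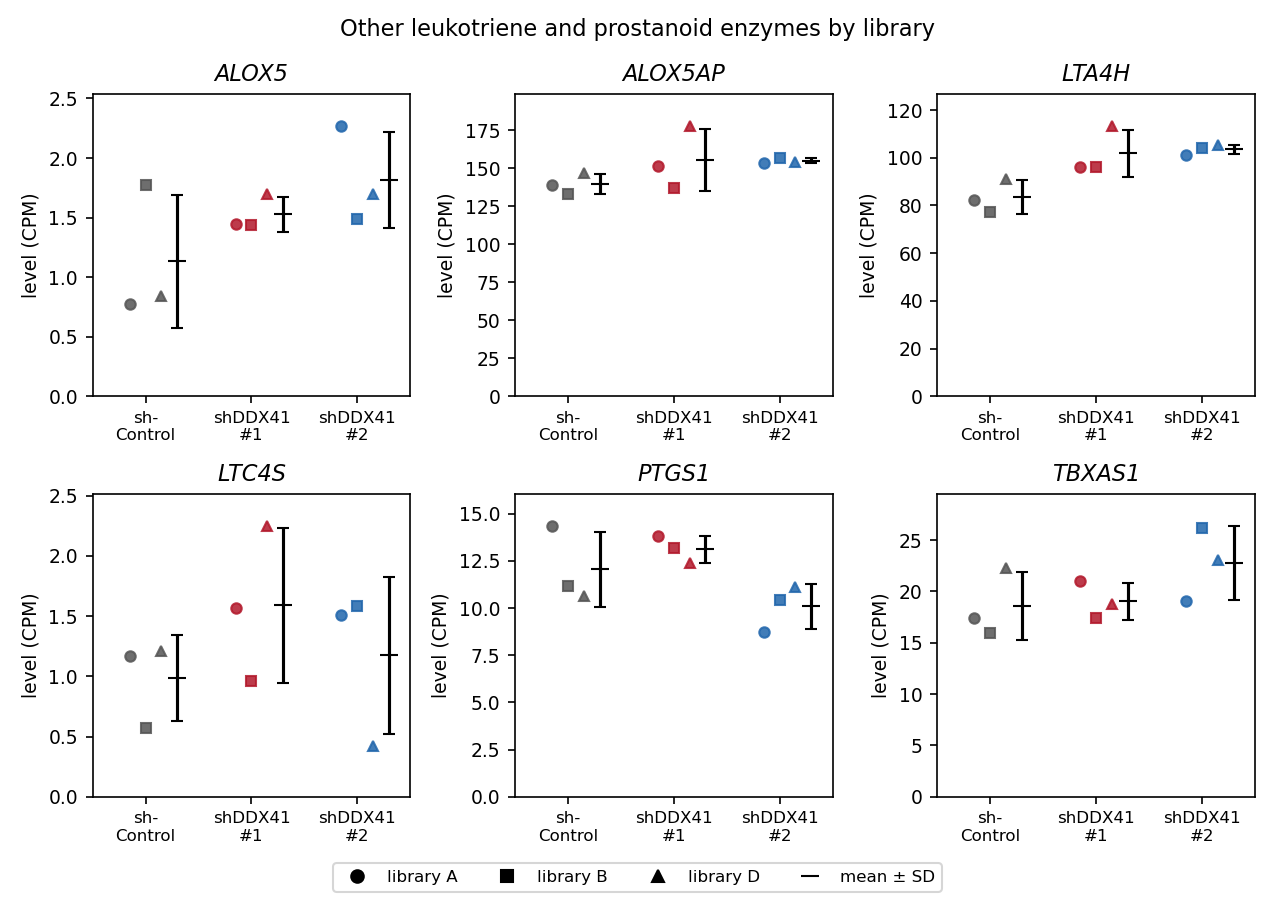
Level of the other 6 genes in CPM (y axes from 0, each with its own scale) in each of the 9 libraries by group (x axis). Marker shapes stand for libraries A, B and D and bars for the mean ± SD of 3 libraries. The LTA4H libraries of both hairpins, at 96.1 to 113 CPM, lie above those of sh-Control, at 77.2 to 91.1 CPM, whereas ALOX5 and LTC4S reach at most 2.27 and 2.24 CPM.

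Among the 6 genes not picked by value, 1 passed the test with #1 and 1 with #2, in both cases LTA4H, which was higher. Of all 12712 genes tested with edgeR's quasi-likelihood test, 47.8% were called with #1 (23.7% higher and 24.1% lower) and 25.0% with #2 (11.6% higher and 13.4% lower). Between the hairpins 1 of the 6, PTGS1, was called, beside 48.8% of all genes (24.6% higher with #1 and 24.2% lower). The median log2 difference of the 6 was 0.22 with #1 and 0.29 with #2, beside 0.01 and −0.01 over all genes. Both comparisons with sh-Control use the same 3 control libraries, so the hairpins are not independent of each other. The groups of 3 libraries cannot give an exact permutation p under 0.1, and LTA4H reached that value with each hairpin.

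**Figure D3:**
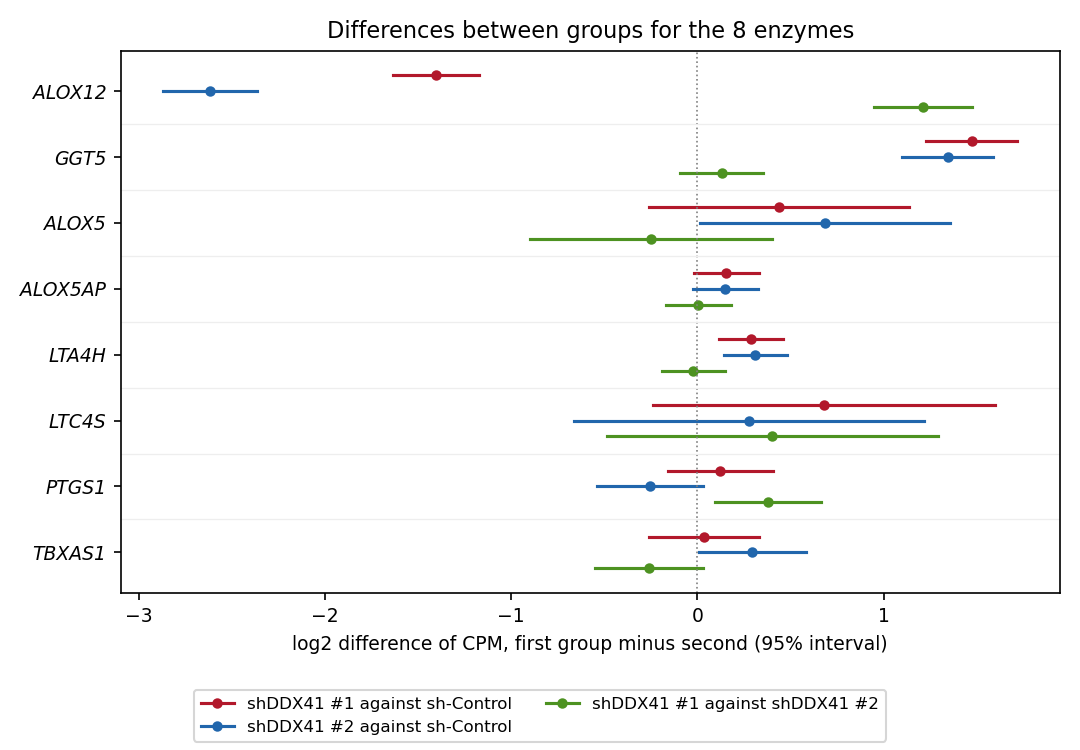
Log2 difference of CPM (x axis, first group minus second) for the 8 genes (rows) in 3 comparisons (colours), with 95% intervals as bars. ALOX12 at −2.62 to −1.41 and GGT5 at 1.34 to 1.47 against sh-Control were picked for these differences, and those of the other 6 genes lie between −0.26 and 0.69.

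Levels can be compared between genes only per length. The length used was the union of all annotated exons of a gene, 7350 bases for LTA4H and 2616 for ALOX12. It can exceed the length of the transcripts made, which was not tested, so the order holds for this length only. Levels are given here as CPM per kilobase of this exon union. On that scale the order in sh-Control was ALOX5AP at 81.4 ± 3.91, ALOX12 at 20.4 ± 0.394, LTA4H at 11.4 ± 0.960, TBXAS1 at 2.99 ± 0.534, PTGS1 at 2.08 ± 0.343, GGT5 at 1.22 ± 0.0676, LTC4S at 0.825 ± 0.299 and ALOX5 at 0.304 ± 0.150 CPM per kilobase. With shDDX41 #2 ALOX12, at 3.32 ± 0.170, lay between GGT5, at 3.10 ± 0.151, and TBXAS1, at 3.67 ± 0.575, and the ranges of 1 SD overlapped between these neighbours. With #1 ALOX12 was at 7.70 ± 1.44 CPM per kilobase, below LTA4H at 13.9 ± 1.35 and above GGT5 at 3.40 ± 0.418. ALOX5AP was the highest and ALOX5 the lowest of the 8 means in every group, although with #2 ALOX5, at 0.487 ± 0.108, and LTC4S, at 0.985 ± 0.546, overlapped within 1 SD.

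Beyond the 8 genes, 63 other genes of the pathways were followed, of which 32 were tested and 9 were at 0 throughout. With #1 13 of the 32 were called (6 higher, 7 lower), beside 47.8% of all genes, and with #2 9 (4 higher, 5 lower), beside 25.0%. Between the hairpins 14 were called (7 higher with #1, 7 lower), beside 48.8%. The count with #2 fell to 5 without #2 library A and to 5 without #2 library D. The medians over the 32 were 0.01, −0.05 and 0.03 on the log2 scale, beside 0.01, −0.01 and 0.01 over all genes.

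Arachidonate is freed by phospholipases A2 and returned to phospholipids by acyltransferases, and 7 of 11 such genes were tested. PLA2G6, a calcium-independent phospholipase A2, rose with #1 (log2 difference 0.45, adjusted p = 0.00936) and with #2 (0.49, adjusted p = 0.0121), the latter call being lost without #2 library A (adjusted p = 0.0624) or #2 library D (adjusted p = 0.0501). PLA2G4C, of the cytosolic group IV enzymes, rose with #1 from 0.528 to 1.65 CPM (log2 difference 1.62, SE 0.37, adjusted p = 0.00215) and was at 0.635 CPM with #2. Its counts were low, at 7 to 39 a library. PLA2G12A, a secreted form, rose with #2 from 5.03 to 8.83 CPM (0.81, SE 0.17, adjusted p = 0.00298) and was at 5.93 CPM with #1. The acyltransferases LPCAT3 (−0.28, adjusted p = 0.0146) and MBOAT7 (−0.33, adjusted p = 0.00133), which put arachidonate into phospholipids, fell with #1. The LPCAT3 call was lost in 3 of 18 alternative fits, including those without sh-Control library A (adjusted p = 0.0675) and #1 library D (adjusted p = 0.0622).

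Among the steps after leukotriene C4, DPEP2 was called higher with both hairpins. This gene encodes a dipeptidase that cleaves leukotriene D4 to leukotriene E4. Apart from the 8 genes, 6 genes for leukotriene formation, export and inactivation were tested, and only DPEP2 was called against sh-Control. That is 1 of 6 with each hairpin, beside 47.8% of all genes called with #1 and 25.0% with #2. DPEP2 rose from 1.96 CPM to 4.46 CPM with #1 (2.27-fold, log2 difference 1.18, SE 0.21, adjusted p = 0.000307) and to 4.72 CPM with #2 (2.40-fold, 1.26, SE 0.21, adjusted p = 0.000462). The groups of both hairpins lay above sh-Control and overlapped each other (log2 difference −0.08, 95% interval −0.48 to 0.31). DPEP2 acts directly after GGT5 in the known order of the pathway, but GGT5 was picked by its values and carries no call. It shares 12841 bases with DUS2 on the opposite strand. MGST3, a microsomal glutathione transferase that can also form leukotriene C4, was not called against sh-Control and was 1.21-fold higher with #1 than with #2 (0.28, adjusted p = 0.0197). That call was lost without #1 library D (adjusted p = 0.0828) or #2 library A (adjusted p = 0.093).

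Of 7 tested genes for prostanoid formation, transport and inactivation, 1 was called with #1 and 3 with #2, all lower, beside the 24.1% and 13.4% of all genes called lower. ABCC4, an exporter of prostaglandins, fell with #1 (log2 difference −0.50, adjusted p = 7.01e-05) and had a difference of −0.21 with #2 (adjusted p = 0.0508). PTGR2, which reduces oxidised prostaglandins, fell with #2 (−0.39, adjusted p = 0.0109). PTGES2, a prostaglandin E synthase (−0.23, adjusted p = 0.0391), and CBR1, a carbonyl reductase acting on prostaglandins (−0.22, adjusted p = 0.0497), were also called lower with #2. These last calls were lost in 8 and 13 of 18 alternative fits.

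Among 5 tested genes of epoxide formation and hydrolysis and peroxide reduction, EPHX2, the soluble epoxide hydrolase, rose with #1 from 3.47 to 6.93 CPM (log2 difference 1.00, SE 0.15, adjusted p = 8.13e-05) and was at 4.37 CPM with #2 (adjusted p = 0.136). GPX1, a peroxidase that reduces lipid hydroperoxides, rose with #1 (0.37, adjusted p = 0.0102; 0.0534 without sh-Control library B), whereas EPHX1, the microsomal epoxide hydrolase, fell (−0.35, adjusted p = 0.00923). CYP2S1, a cytochrome P450, fell with #2 from 3.65 to 1.75 CPM (−1.07, SE 0.27, adjusted p = 0.0104) and was at 4.52 CPM with #1. That call was lost without sh-Control library A (adjusted p = 0.0566) or #2 library B (adjusted p = 0.0589).

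Receptors were called in both directions, and 6 of 16 were tested. Both leukotriene B4 receptor genes fell with #1, LTB4R from 23.9 to 16.2 CPM (log2 difference −0.55, SE 0.11, adjusted p = 0.000764) and LTB4R2 from 4.24 to 2.77 CPM (−0.61, SE 0.17, adjusted p = 0.0073). They share 604 bases on the same strand, and LTB4R2 also overlaps CIDEB and NOP9. With #2 they were at 22.7 and 4.99 CPM and were not called. CYSLTR1, a receptor for the cysteinyl leukotrienes, fell with #1 from 31.9 to 25.8 CPM (−0.31, adjusted p = 0.00485) and rose with #2 to 38.7 CPM (0.28, adjusted p = 0.0149). The call with #2 was lost without sh-Control library A (adjusted p = 0.0527), #2 library A (adjusted p = 0.0528) or #2 library D (adjusted p = 0.0635). PTGER4, a prostaglandin E2 receptor, rose with #1 from 33.6 to 54.7 CPM (0.71, SE 0.13, adjusted p = 0.000521) and was at 36.3 CPM with #2. PTGIR, the prostacyclin receptor, fell with #2 from 2.04 to 0.912 CPM (−1.14, SE 0.25, adjusted p = 0.00428) and was at 2.87 CPM with #1 (0.49, adjusted p = 0.0714).

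**Figure D4:**
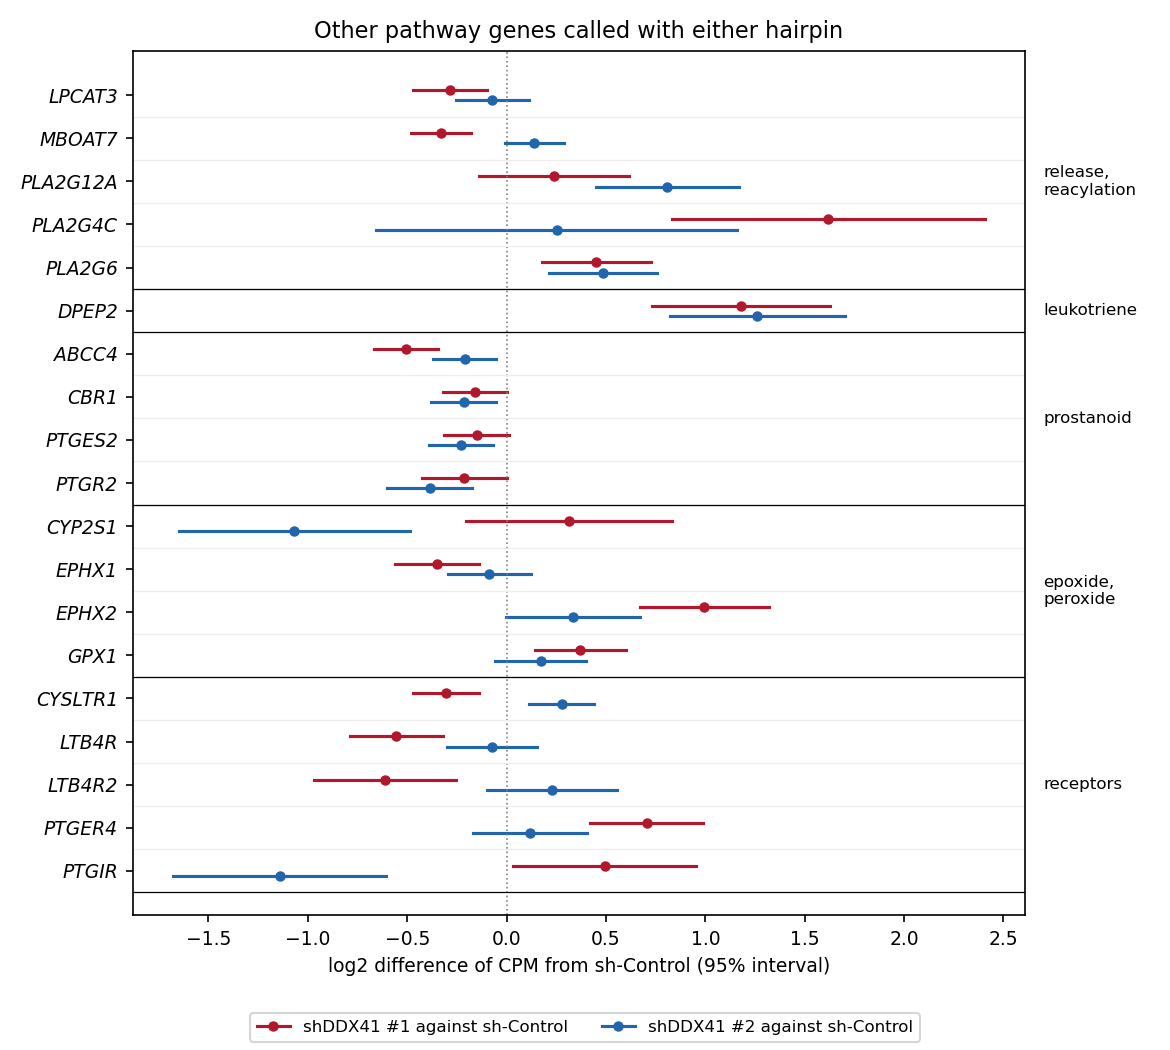
Log2 difference of CPM from sh-Control (x axis) for the 19 other pathway genes called with at least 1 hairpin (rows, grouped by step), with 95% intervals as bars and a colour for each hairpin. PLA2G6 and DPEP2 were called higher with both hairpins, and CYSLTR1 was called lower with #1 (−0.31) and higher with #2 (0.28), the #2 calls of PLA2G6 and CYSLTR1 being lost in 2 and 3 of 18 alternative fits.

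The genes with the pattern most like ALOX12 were found by Pearson's r of log2 CPM over the 9 libraries, among 9833 tested genes with a mean of at least 5 CPM. They were CDC25A, a cell cycle phosphatase (r = 0.995), SLC20A1, a phosphate transporter (0.991), and MMP14, a membrane matrix metalloproteinase (0.988). CDC25A was at 77.6 ± 4.25 CPM in sh-Control, 47.0 ± 2.60 CPM with #1 and 32.0 ± 0.973 CPM with #2. For GGT5 they were HLA-DRA, an MHC class II chain (0.988), PPCS, an enzyme of coenzyme A synthesis (0.988), and TDRD7, a Tudor domain protein (0.987). HLA-DRA was at 2.82 ± 0.418, 10.7 ± 2.11 and 11.1 ± 0.776 CPM in the same groups. In all, 180 genes had r over 0.9 with ALOX12 and 200 with GGT5, and the 9 points share libraries, depth and 3 groups. By Spearman's rho, 0 of the 3 genes were the same for ALOX12 and 0 for GGT5.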

How the data were processed

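RNA from sorted MOLM13 cells was measured in 9 libraries, 3 each for sh-Control, shDDX41 #1 and shDDX41 #2. The authors deposited whole-number read counts per gene, not normalised. The submitters' processing notes name FastQC 0.11.7, HISAT2 2.0.5 and featureCounts 1.5.2 and the builds mm10 and hg38. The strand setting, annotation and treatment of multiply mapped reads are not given in the sources used here, so reads of overlapping genes on opposite strands may not be separated. Besides the overlaps named above, the spans of other counted genes overlap called genes on the opposite strand. These are TTC33 over PTGER4 (14238 bases), SETD4 over CBR1 (3226), C1S (30252) and EMG1 (21243) over LPCAT3, MAFF over PLA2G6 (4924) and TMEM63A over EPHX1 (28). Their part in the reads was not tested. Totals of 16385238 to 20510032 counts set the precision, which is low for genes of few counts such as ALOX5 and LTC4S.

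Counts were analysed with edgeR 4.0.16 in R 4.3.3. Genes were kept by filterByExpr (minimum count 10), libraries were scaled by TMM on the summed counts of the kept genes, and a quasi-likelihood model (glmQLFit, glmQLFTest) was fitted to all 9 libraries with 1 coefficient per group. P-values were adjusted by Benjamini-Hochberg over the 12712 tested genes and called under 0.05. Positions and exon lengths came from GENCODE 29 and promoters from RefSeq. ALOX12-AS1 is listed in the table by its RefSeq gene ID. The procedure was tested on simulated data, whose set differences were larger than those of LTA4H, so it does not bear on calls that small.

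The 8 genes and the pathway and marker lists were chosen with earlier results of these data known. The genes named were the 8 genes, DDX41, each pathway gene called against sh-Control with either hairpin, transcripts of the ALOX12 locus, and the 3 genes most correlated with ALOX12 and with GGT5. GGT1, GGT7, MGST3, HIPK2 and the other lipoxygenases were named after their values were seen. The alternatives were other scalings, filters, tests (DESeq2 1.42.0, limma 3.58.1), the 6 libraries compared, a replicate block and each library left out. One marker gene is not reported here.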

Additional observations from a re-analysis of the deposited data

Results flagged for a closer look

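For 1 of the 8 genes and 7 other pathway genes the hairpins differed in the edgeR contrast of #1 against #2, with differences from sh-Control of opposite sign. Of all 12712 genes tested, 48.8% were called in that contrast. The share of all genes that also had opposite signs was not computed, so these genes are listed as a description only. LTB4R2 (log2 difference −0.84, adjusted p = 0.000649), CYSLTR1 (−0.58, adjusted p = 2.2e-05) and MBOAT7 (−0.47, adjusted p = 6.46e-05) were lower with #1 than with #2. PTGIR (1.63, adjusted p = 6.14e-05) and CYP2S1 (1.38, adjusted p = 0.000613) were higher with #1. Over the alternative fits the adjusted p-values of these differences were at most 0.00478 for LTB4R2, 0.000249 for CYSLTR1, 0.000668 for MBOAT7, 0.00064 for PTGIR and 0.00575 for CYP2S1. PTGS1 (0.38, adjusted p = 0.0282), GGT7 (0.41, adjusted p = 0.0316) and MGST3 (0.28, adjusted p = 0.0197) were also higher with #1, but were not called against sh-Control with either hairpin. Their calls were lost in some alternatives, with adjusted p-values of up to 0.128, 0.131 and 0.093. Of these genes only CYSLTR1 was called against sh-Control with both hairpins, lower with #1 and higher with #2. Its call with #2 was lost in 3 of 18 alternative fits. LTB4R2 (log2 difference from sh-Control 0.23, adjusted p = 0.301) and MBOAT7 (0.14, adjusted p = 0.157) were not called with #2. PTGIR (0.49, adjusted p = 0.0714) and CYP2S1 (0.31, adjusted p = 0.302) were not called with #1.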

How the results depend on the processing

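LTA4H was called with both hairpins in all 18 alternative fits (adjusted p at most 0.0389 with #1 and 0.0469 with #2). ALOX12 and GGT5 kept their direction in each fit of every comparison. They were picked by their direction against sh-Control in these same libraries, so this lends no support. The pathway genes called with #2 were 5 to 11 when 1 library was left out, beside 9 in all, with 5 without #2 library A and 5 without #2 library D. Of 22 gene and hairpin calls among the pathway genes, 15 held in every alternative and 7 were lost in at least 1 (LPCAT3 and GPX1 with #1, and PLA2G6, PTGES2, CBR1, CYP2S1 and CYSLTR1 with #2). The cause of these losses was not tested. Signs turned only for differences that were not called. The ALOX5AP difference between the hairpins was −0.001343 with DESeq2 size factors, −0.003213 without the filter, −0.001336 with the DESeq2 Wald test, −0.002828 with limma voom and −0.00503 with the 6 libraries compared, and −0.100 to 0.0843 with 1 library left out. That of LTA4H was 0.0196 with upper quartile factors and −0.104 to 0.0141 with 1 library left out. Leaving out 1 library gave −0.0603 to 0.187 for TBXAS1 with #1 and −0.000675 to 0.645 for LTC4S with #2.

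Same-letter libraries of #1 and sh-Control deviated together weakly, with r of 0.0725, 0.158 and 0.243 for A, B and D. Different letters of these groups gave −0.184 to 0.0664. In the comparisons that involve #2, same-letter r was −0.0574 to 0.0225. The labels do not say that the letters pair the samples, so the main fit left them out and a replicate block was fitted as an alternative. With the replicate block 13 pathway genes were called with #1, 10 with #2 and 16 between the hairpins, and the ALOX5AP difference between the hairpins was −0.001843. Depth limits ALOX5 and LTC4S most, at 7 to 42 counts a library.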
